A study of Mus musculus with 12 samples.

Results

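The genes described here encode 10 transcription factors that build and maintain haematopoietic stem cells: Mecom, Hlf, Gata2, Gata3, Erg, Fli1, Runx1, Tal1, Lmo2 and Etv6. They were taken by name from a deposited table of 37187 genes, and all 10 passed the filter on low values (3 or more libraries at 10 or above, met by 14045 genes). The table holds bulk RNA-seq of mouse bone marrow cells sorted as LSK, that is lacking lineage markers and carrying Sca-1 and c-Kit, a gate that contains stem cells and multipotent progenitors. The groups were animals without Tet2 and Traf6 (labelled Tet2;TRaf6 dKO, here dKO), without Tet2 (Tet2 KO), without Traf6 (Traf6 KO) and wild type (WT), with 3 libraries each. Tet2 encodes an enzyme that oxidises methylated cytosine, and Traf6 a ubiquitin ligase of innate immune signalling; the series title places TRAF6 as a suppressor of MYC activity in acute myeloid leukaemia. The way in which the genes were deleted, the Cre driver, the strain, the age and any pooling of animals are not given in the sources used here.

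Stem cell factors of this kind occupy shared regulatory elements, often side by side, and each is needed at a particular step of stem cell formation or upkeep. GATA2, RUNX1, the ETS proteins ERG and FLI1, and a complex in which TAL1 and LMO2 are joined bind many of the same enhancers in blood progenitors. MECOM (also called EVI1) and HLF are hallmarks of the most primitive, quiescent cells, and ETV6 is an ETS-family repressor needed by stem cells of adult marrow.

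Of the 10 genes, Mecom, Hlf, Gata2 and Etv6 were called lower in dKO cells than in WT cells and than in either single knockout in the deposited values. Of all genes tested, 26.5% were called lower in dKO than in WT, 19.9% than in Tet2 KO and 20.7% than in Traf6 KO. The calls of these 4 genes against WT held once the relation between change and transcript length was taken off. Of all genes, 12.3% were then called lower against WT. With 1 library also left out, these calls against WT held in 12 of 12 fits for Mecom, 11 for Gata2, 8 for Etv6 and 7 for Hlf. Only Mecom kept its adjusted call against both single knockouts. Gata2 and Etv6 kept it against Traf6 KO and Hlf against neither. Mecom showed the largest difference of the 10 from WT, a log2 change of -2.85 (7.21-fold lower in dKO) as deposited and -1.78 with that trend taken off. Runx1, Tal1 and Fli1 were also called lower in dKO cells, and Lmo2 higher, but these calls ended with the trend taken off. Erg and Gata3 were not called in any comparison of the deposited values. None of the 10 genes was called in Tet2 KO or Traf6 KO cells against WT cells, where 0.413% and 0.271% of all genes were.

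The values are a normalised signal, in which each library's reads were scaled by a single factor. The reads recovered from them numbered 22169673 to 53921402 per library, and 1 read was worth 0.518 to 1.79 signal units, so the lowest value among the 10 genes, 400 for Mecom in dKO replicate 3, was far above that of a single read. Whether libraries of 1 group stem from different mice is not stated, and the p-values therefore measure a spread between libraries that may be technical. The targeted genes were set against the labels: Tet2 signal was 197 to 326 in dKO libraries, 403 to 668 in Tet2 KO, 339 to 722 in Traf6 KO, against 525 to 783 in WT. Traf6 signal was 799 to 1313 in dKO libraries, 1432 to 3127 in Tet2 KO, 568 to 2474 in Traf6 KO, against 1935 to 3006 in WT. The libraries labelled Tet2 KO replicate 1 (Tet2 at 668) and Traf6 KO replicate 1 (Traf6 at 2474) lay within the WT range of the gene they should lack, and results that change without them are given below. Tet2 also lay below the WT range in Traf6 KO replicates 2 and 3 (339 and 427). Traf6 did so in Tet2 KO replicates 2 and 3 (1432 and 1776). A low signal of either gene therefore does not by itself bear out a single knockout label. In dKO both genes lay below all WT libraries, but so did 30.5% of all genes tested. Their low signal does not by itself bear out the dKO label either. Xist, made from the inactive X chromosome of females, stood at 990 to 3826 in Tet2 KO and 1164 to 2095 in Traf6 KO libraries but at no more than 1.3 in dKO and 17.0 in WT libraries, so that genotype and sex cannot be told apart where a single knockout is compared with dKO or WT. The library labelled Traf6 KO replicate 1 held both Xist (1574) and RNA of Y-linked genes (Ddx3y at 2815, against 2.32 and 1.78 in Traf6 KO replicates 2 and 3); no other library held both at levels of this size. In bulk RNA, fewer cells of a type and less RNA per cell cannot be told apart either.

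The promoters shown are those of the 4 genes called lower in dKO than in WT cells with and without the length and GC adjustment. Each sequence is the 250 bases before the first start listed for the gene in RefSeq on GRCm38.p6, 5′ to 3′ on the gene's strand. Of the 10 genes, 8 were found there. Capitals mark matches on either strand to short motifs. For GATA factors the letters TGATAA were searched, found in 7.94% of 32851 promoters of the same length, as well as AGATAA, found in 9.99%. For ETS factors CCGGAA (12% of promoters) was searched along with AGGAAG (29.5%), and for RUNX factors TGTGGT (14%). For the E-boxes bound by TAL1 with its partners CAGCTG (13%) was searched along with CAGATG (14.4%), and for the PAR bZIP family of HLF the letters TTANGTAA (2.06%). A match is a description of the letters, not a binding site. The promoters lie at chr3:30509760-30510009 on the minus strand for Mecom, chr11:90390918-90391167 on the minus strand for Hlf, chr6:88193641-88193890 on the plus strand for Gata2 and chr6:134035450-134035699 on the plus strand for Etv6. The window of Mecom lies inside the span given for that gene below (chr3:29951296-30548008), so the start it precedes is internal to that span.
Mecom: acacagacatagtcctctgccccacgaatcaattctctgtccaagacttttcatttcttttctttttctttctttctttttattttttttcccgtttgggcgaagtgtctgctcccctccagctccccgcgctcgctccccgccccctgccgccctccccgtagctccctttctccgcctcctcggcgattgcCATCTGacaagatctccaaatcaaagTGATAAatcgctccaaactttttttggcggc
Hlf: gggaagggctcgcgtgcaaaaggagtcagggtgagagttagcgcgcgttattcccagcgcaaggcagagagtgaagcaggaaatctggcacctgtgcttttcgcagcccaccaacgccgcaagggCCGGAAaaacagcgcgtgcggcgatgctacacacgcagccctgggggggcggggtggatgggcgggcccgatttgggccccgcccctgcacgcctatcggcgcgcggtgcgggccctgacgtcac
Gata2: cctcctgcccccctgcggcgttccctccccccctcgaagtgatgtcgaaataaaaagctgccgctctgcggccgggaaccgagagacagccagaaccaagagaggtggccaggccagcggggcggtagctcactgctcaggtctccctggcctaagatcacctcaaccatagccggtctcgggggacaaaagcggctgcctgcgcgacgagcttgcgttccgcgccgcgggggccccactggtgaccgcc
Etv6: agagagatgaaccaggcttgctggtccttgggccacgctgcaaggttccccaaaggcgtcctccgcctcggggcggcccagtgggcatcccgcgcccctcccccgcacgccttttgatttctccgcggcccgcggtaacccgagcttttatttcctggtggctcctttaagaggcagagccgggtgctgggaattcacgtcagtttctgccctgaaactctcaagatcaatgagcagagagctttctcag
The Mecom promoter held TGATAA from 31 to 26 bases before the start and CAGATG, read on the other strand, from 57 to 52 bases before it. The Hlf promoter held CCGGAA from 125 to 120 bases before its start. Each of these is a common match, as the shares above show. The Gata2 and Etv6 promoters shown held none of the motifs, and neither did the second annotated promoter of Mecom or of Gata2. That says only that these letters are not in the windows searched.

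Levels can be compared between genes per kilobase of the longest annotated transcript. Changes in dKO cells also moved with transcript length, as given below, and the levels per kilobase are not adjusted for that. In WT cells Lmo2 was the most abundant at 16260 ± 1208 signal per kilobase (SD, n = 3, as for all means here), followed by Gata2 at 3765 ± 594, Etv6 at 2770 ± 583, Fli1 at 2480 ± 261 and Hlf at 1411 ± 220. Mecom (770 ± 115) and Runx1 (733 ± 48.0) came next, then Erg (419 ± 46.8), Gata3 (287 ± 26.3) and Tal1 (262 ± 68.8). In this WT order the libraries of Etv6 and Fli1 overlapped, as did those of Mecom and Runx1 and those of Gata3 and Tal1, while the other neighbours were separate. In dKO cells the order was Lmo2 at 27836 ± 9389, Fli1 at 1608 ± 620, Gata2 at 1241 ± 359, Etv6 at 789 ± 200, Hlf at 432 ± 64.5, Erg at 378 ± 140, Runx1 at 372 ± 52.0, Gata3 at 242 ± 95.5, Tal1 at 154 ± 29.8 and Mecom at 112 ± 45.9. Mecom thus held the last place in dKO cells, although its libraries overlapped those of Tal1, and all neighbours below Lmo2 overlapped in dKO cells except Etv6 and Hlf. In the single knockouts Lmo2 and Gata2 also led, at 21346 ± 4125 and 2290 ± 200 in Tet2 KO and 18512 ± 1214 and 3712 ± 427 in Traf6 KO, and Tal1 was last, at 179 ± 52.8 in Tet2 KO and 198 ± 26 in Traf6 KO. Between them stood Fli1, Etv6, Hlf, Runx1, Mecom, Erg and Gata3 in Tet2 KO, with 2172 ± 290, 1924 ± 672, 1082 ± 212, 579 ± 131, 455 ± 136, 400 ± 42.4 and 282 ± 60.5 signal per kilobase in that order. In Traf6 KO the same places held Etv6, Fli1, Hlf, Mecom, Runx1, Erg and Gata3, with 2380 ± 559, 2242 ± 224, 961 ± 196, 841 ± 339, 509 ± 125, 322 ± 63.6 and 290 ± 42.0 in that order. The neighbours that were separate in Tet2 KO cells were Lmo2 and Gata2, Etv6 and Hlf, Hlf and Runx1, and Erg and Gata3. In Traf6 KO cells they were Lmo2 and Gata2, Gata2 and Etv6, Fli1 and Hlf, Runx1 and Erg, and Gata3 and Tal1.

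**Figure D1:**
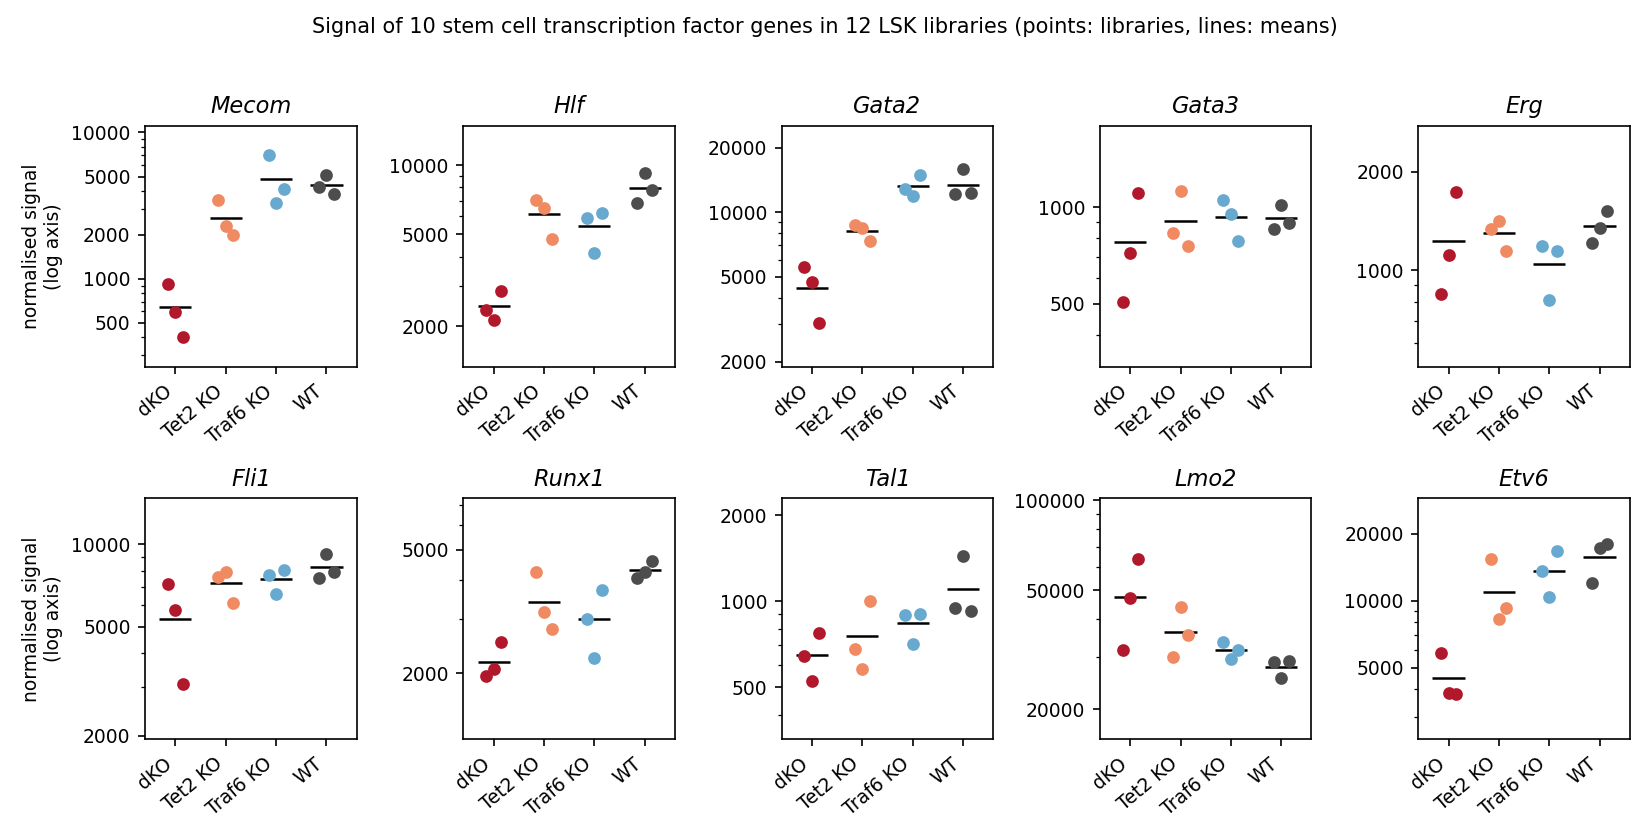
Normalised signal (vertical log axis) of each gene in every library, with dKO, Tet2 KO, Traf6 KO and WT from left to right; points are libraries and lines are means of 3. The 3 dKO points of Mecom (400 to 918), Hlf (2125 to 2836), Gata2 (3029 to 5539) and Etv6 (3817 to 5821) lie below every point of the other groups.

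In the limma fit of all 12 libraries, 8 of the 10 genes passed the adjusted p threshold of 0.05 in dKO against WT, 7 of them lower and 1 higher in dKO. Over all genes tested, 48.3% passed in that comparison, 26.5% as lower and 21.9% as higher. The same 8 genes did not overlap between dKO and WT libraries, where 30.5% of all genes were lower and 27.9% higher in dKO without overlap. The median log2 change of the 10 genes was -0.87, against -0.09 over all genes tested. Changes in dKO cells moved with transcript length: genes of 1600 to 1800 nucleotides had a median log2 change of 0.89, genes of 3000 to 3600 nucleotides -0.39, genes of 4000 to 4400 nucleotides -0.87 and genes of 5500 to 6000 nucleotides -1.33. The fit was therefore repeated after a smooth trend on length and GC content had been taken off in each library. Length was not taken off alone, and "the length trend" below is short for this trend on both. With that trend removed, 4 of the 10 genes were called in dKO against WT, all lower, where 29.2% of genes were called, 12.3% as lower and 16.8% as higher. The median of the 10 genes was then -0.32, against 0.04 over all genes. The count of 8 fell to 5 without dKO replicate 2, without WT replicate 2 or without WT replicate 3, and was 6 with either of the libraries labelled Tet2 KO replicate 1 and Traf6 KO replicate 1 left out. The count of 4 with the trend removed fell to 2 without dKO replicate 2, to 1 without WT replicate 2 and to 2 without WT replicate 3.

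**Figure D2:**
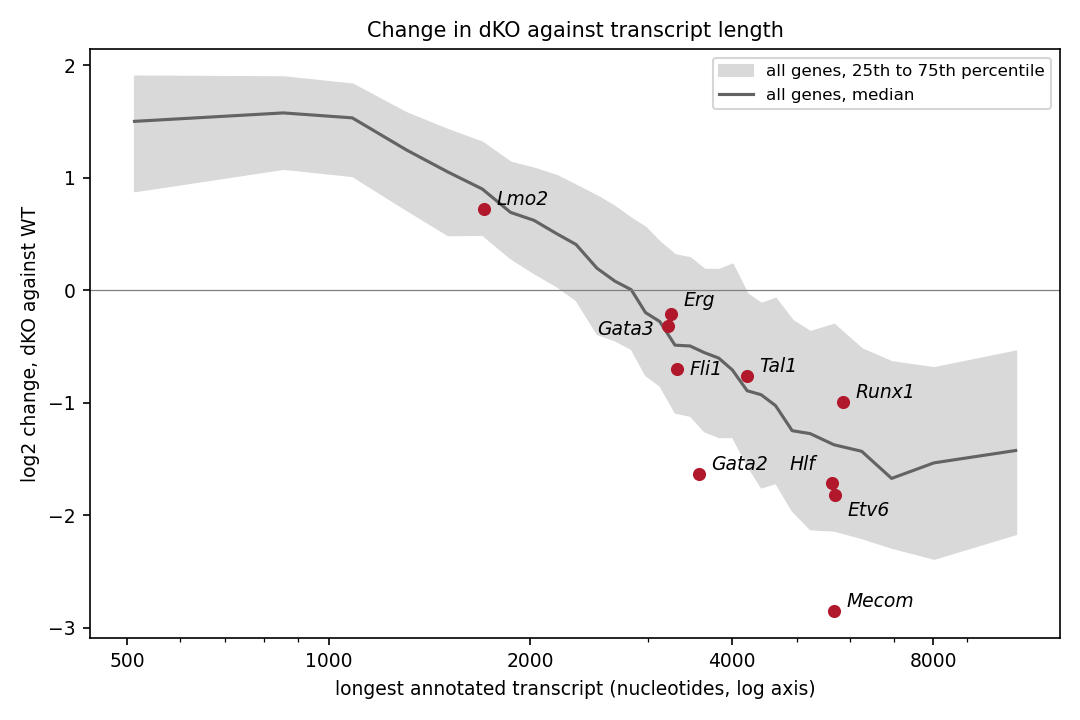
The log2 change in dKO against WT (vertical axis) over the longest annotated transcript in nucleotides (log axis), with the median and the 25th to 75th percentile of all genes and the 10 stem cell factor genes in red. Mecom and Gata2 lie below the shaded range at their lengths, Lmo2, Erg, Gata3, Fli1, Tal1, Runx1, Hlf and Etv6 within it.

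Mecom (chr3:29951296-30548008, minus strand, GRCm38), a zinc-finger factor required for self-renewal of stem cells, had a signal of 918, 595 and 400 in dKO libraries. It had 3467, 2308 and 2002 in Tet2 KO, 6965, 3293 and 4095 in Traf6 KO and 4226, 5100 and 3822 in WT libraries. Every dKO library lay below every library of the other groups, and the Tet2 KO libraries lay below the WT libraries, while Traf6 KO and WT overlapped. Its log2 change in dKO against WT was -2.85 ± 0.35 (SE; limma adjusted p = 0.000302), and -1.78 ± 0.26 with the length trend removed (adjusted p = 0.000878). Only 3.75% of tested genes had a lower log2 change, and genes of 5500 to 6000 nucleotides, as Mecom is with 5692, had a 25th percentile of -2.12. Leaving out any 1 of the 12 libraries kept the call, at -3.15 to -2.56 as deposited and -1.94 to -1.52 with the trend removed. Mecom was the one member called lower in dKO than in both single knockouts with the trend removed: -1.31 against Tet2 KO (adjusted p = 0.0146; called in 10 of 12 fits with 1 library left out, highest adjusted p 0.078) and -2.11 against Traf6 KO (adjusted p = 0.00199; called in all 12). As deposited these differences were -2.06 (adjusted p = 0.00584) and -2.91 (adjusted p = 0.0012). In Tet2 KO against WT, Mecom differed by -0.79 (95% interval -1.53 to -0.04) with an adjusted p of 0.54, and by -0.47 with the trend removed (adjusted p = 0.711).

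Hlf (chr11:90336536-90390895, minus strand), a PAR bZIP factor that holds stem cells in quiescence, had 2347, 2125 and 2836 in dKO libraries. Its signal was 7051, 6500 and 4763 in Tet2 KO, 5898, 4157 and 6203 in Traf6 KO and 6815, 9278 and 7785 in WT libraries. The dKO libraries were the lowest and close together, and the Traf6 KO libraries also lay below the WT libraries. Its log2 change in dKO against WT was -1.71 ± 0.24, or 3.26-fold lower (adjusted p = 0.000368). With the length trend removed the change was -0.66 ± 0.21 (adjusted p = 0.0308), and this smaller value lost its call without dKO replicate 1, dKO replicate 2 or any of the 3 WT libraries, the highest adjusted p being 0.134 without WT replicate 2. Against the single knockouts, Hlf was lower in dKO by a log2 change of -1.32 (Tet2 KO, adjusted p = 0.00634) and -1.14 (Traf6 KO, adjusted p = 0.00473), and with the trend removed by -0.58 (adjusted p = 0.0773) and -0.36 (adjusted p = 0.241).

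Gata2 (chr6:88193891-88207032, plus strand), a GATA factor on which stem cell generation and survival depend, had 5539, 4729 and 3029 in dKO libraries. Its signal was 8689, 8478 and 7361 in Tet2 KO, 12834, 11987 and 14945 in Traf6 KO and 12155, 15893 and 12283 in WT libraries. The Tet2 KO libraries stood between the dKO and WT libraries without overlapping either, while Traf6 KO and WT overlapped. In dKO against WT the log2 change was -1.63 ± 0.23 (adjusted p = 0.000413), or -0.83 ± 0.21 with the trend removed (adjusted p = 0.00976), a call that ended without WT replicate 2 (-0.76, adjusted p = 0.0519). Against Traf6 KO it was -1.62 (adjusted p = 0.00186), and -1.04 with the trend removed (adjusted p = 0.0084). Against Tet2 KO it was -0.92 (adjusted p = 0.0137), which lost its call with the library labelled Tet2 KO replicate 1 left out (adjusted p = 0.0604) and with the trend removed (-0.21, adjusted p = 0.501). Mast cells also make Gata2, and 6 of 8 tested mast cell and basophil genes rose in dKO against WT, as deposited and with the trend removed, where 21.9% and 16.8% of all genes were called higher. The summed signal of 9 such genes, led by Cpa3, Mcpt8 and Hdc, was 6606 to 10920 in dKO, 1460 to 2089 in Tet2 KO, 3772 to 9963 in Traf6 KO, against 1397 to 2256 in WT libraries. These genes moved opposite to Gata2 in dKO cells, and their part in its signal was not tested.

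Etv6 (chr6:134035700-134270158, plus strand) had 5821, 3870 and 3817 in dKO libraries. Its signal was 15368, 8279 and 9298 in Tet2 KO, 13640, 10358 and 16743 in Traf6 KO and 11992, 17339 and 18091 in WT libraries. The dKO libraries lay below all others, and the other groups overlapped. Etv6 fell in dKO against WT, with a log2 change of -1.82 ± 0.29 (adjusted p = 0.000647), and -0.58 ± 0.19 with the trend removed (adjusted p = 0.0362), and that smaller value lost its call without dKO replicate 2 or 3 or WT replicate 2 or 3 (highest adjusted p 0.131). Etv6 was lower than in Traf6 KO by a log2 change of -1.59 (adjusted p = 0.00272), or -0.68 with the trend removed (adjusted p = 0.0265; called in 8 of 12 fits with 1 library left out). It was lower than in Tet2 KO by -1.26 (adjusted p = 0.0104), a call that ended with the library labelled Tet2 KO replicate 1 left out (-0.99, adjusted p = 0.0553) and with the trend removed (-0.38, adjusted p = 0.182). The kit does not mark strand, and of the antisense genes that overlap Etv6, 2 are in the table, but their mean signals of 47.7 (Gm17089) and 5.4 (Gm17088) over the 12 libraries were small beside it.

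**Figure D3:**
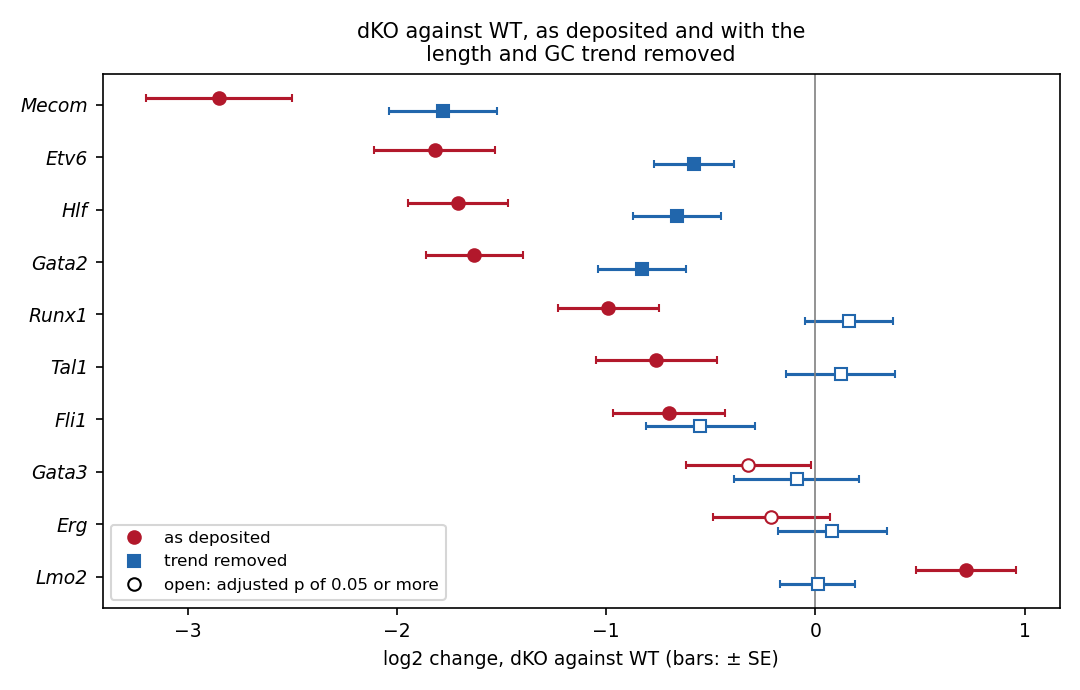
Change of each gene in dKO against WT (log2, horizontal axis, bars ± SE), as deposited (red circles) and after the length and GC adjustment (blue squares); filled symbols passed an adjusted p of 0.05. Mecom, Etv6, Hlf and Gata2 are filled both ways, while Runx1, Tal1, Fli1 and Lmo2 are filled only as deposited.

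Runx1 (chr16:92601466-92826149, minus strand), a Runt-domain factor that works with CBFB, had 1953, 2057 and 2525 in dKO libraries. Its signal was 4253, 3146 and 2774 in Tet2 KO, 2996, 2244 and 3712 in Traf6 KO and 4045, 4238 and 4599 in WT libraries. Both dKO and Traf6 KO libraries lay below all WT libraries. In dKO against WT it was lower by a log2 change of -0.99 ± 0.24 (adjusted p = 0.00578), called with any 1 library left out, but the sign turned with the length trend removed (0.16 ± 0.21, adjusted p = 0.609). Runx1 is the longest of the 10 genes by transcript, at 5861 nucleotides, and its fall was smaller than the median of -1.33 for genes of 5500 to 6000 nucleotides. Cbfb, which encodes its partner, stood at 12543, 10772 and 7830 in dKO and 10922, 12385 and 13230 in WT libraries and did not pass the test (-0.25, adjusted p = 0.372; -0.36 with the trend removed, adjusted p = 0.286).

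Because Mecom, Hlf and Etv6 have transcripts close in length to that of Runx1, their ratios to it within a library are given as well. Such ratios were chosen after the values were seen, restate those values and are given without a test. In dKO against WT, Runx1 fell less than the median for its length (log2 change -0.99 against -1.33), which lowers the dKO ratios to it. The ratio of Mecom to Runx1 signal was 0.470, 0.289 and 0.159 in dKO, 0.815, 0.734 and 0.722 in Tet2 KO, 2.32, 1.47 and 1.10 in Traf6 KO and 1.04, 1.2 and 0.831 in WT libraries. The ratio of Hlf to Runx1 was 1.2, 1.03 and 1.12 in dKO, 1.66, 2.07 and 1.72 in Tet2 KO, 1.97, 1.85 and 1.67 in Traf6 KO and 1.68, 2.19 and 1.69 in WT libraries. Both ratios were lower in each dKO library than in every other library. The ratio of Etv6 to Runx1 was 2.98, 1.88 and 1.51 in dKO, 3.61, 2.63 and 3.35 in Tet2 KO, 4.55, 4.62 and 4.51 in Traf6 KO and 2.96, 4.09 and 3.93 in WT libraries, so that dKO replicate 1 overlapped the WT libraries. Gata2 and Erg, of 3571 and 3249 nucleotides, had a ratio of 6.56, 4.26 and 1.75 in dKO, 6.49, 6.01 and 6.43 in Tet2 KO, 10.9, 14.8 and 13 in Traf6 KO and 10, 11.8 and 8.09 in WT libraries. Here dKO and Tet2 KO overlapped, and both lay below Traf6 KO and WT.

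**Figure D4:**
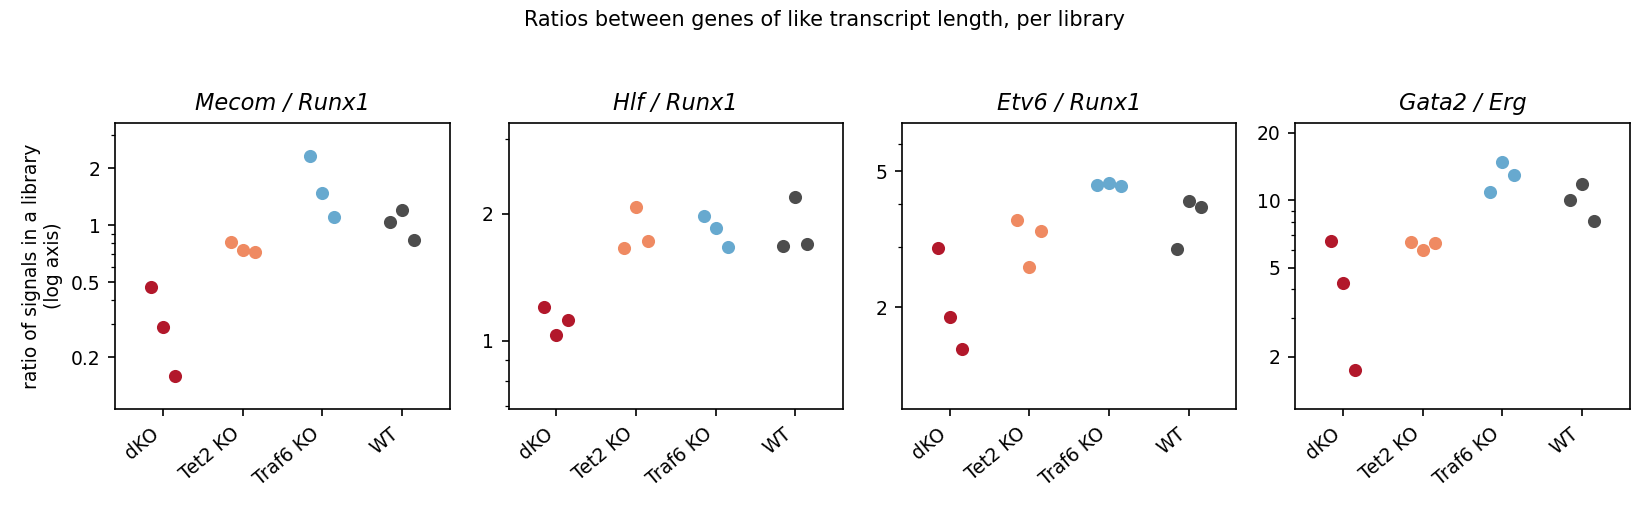
Ratio of the signals of 2 genes of like transcript length in each library (vertical log axis), with dKO, Tet2 KO, Traf6 KO and WT from left to right. The ratios of Mecom and Hlf to Runx1 are lowest in the 3 dKO libraries, and the ratio of Gata2 to Erg is lower in dKO and Tet2 KO than in Traf6 KO and WT.

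Tal1 (chr4:115056426-115071755, plus strand), a basic helix-loop-helix factor that pairs with E proteins, had 644, 524 and 776 in dKO libraries. Its signal was 679, 580 and 1005 in Tet2 KO, 892, 710 and 906 in Traf6 KO and 948, 1439 and 927 in WT libraries. The dKO and Traf6 KO libraries lay below all WT libraries. The log2 change in dKO against WT was -0.76 ± 0.29 (adjusted p = 0.0463), and it turned to 0.12 with the length trend removed (adjusted p = 0.767). As deposited, the call held in 4 of 12 fits with 1 library left out, with values from -0.90 to -0.55 and the highest adjusted p of 0.201 without WT replicate 2.

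Lmo2 (chr2:103957986-103981878, plus strand), a LIM adaptor that binds no DNA itself and bridges TAL1 and GATA factors through LDB1, had 31637, 47162 and 63667 in dKO libraries. Its signal was 29869, 43858 and 35524 in Tet2 KO, 33704, 29565 and 31475 in Traf6 KO and 28765, 25367 and 29086 in WT libraries. The libraries of all 3 mutant groups lay above the WT libraries. Lmo2 was the only member called higher in dKO against WT, by a log2 change of 0.72 ± 0.24 (adjusted p = 0.0251). It is also the shortest, at 1706 nucleotides, and the change was 0.01 ± 0.18 with the length trend removed (adjusted p = 0.983). With equal library totals the call was lost. It held in 8 of 12 fits with 1 library left out, with values from 0.48 to 0.98, and ended without dKO replicate 2 or 3 or WT replicate 2 or 3 (highest adjusted p 0.0863). An antisense gene, 4931422A03Rik, overlaps Lmo2, with a mean signal of 24.3 over the 12 libraries.

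Erythroid cells also use Tal1, Lmo2 and Gata1, and 3 of 10 tested erythroid genes rose in dKO against WT, where 21.9% of all genes did, and 2 of 10 with the trend removed, where 16.8% did. The summed signal of the 10 genes, led by Car1, Gata1 and Klf1, was 16908 to 35513 in dKO, 8160 to 76182 in Tet2 KO, 4254 to 12793 in Traf6 KO, against 2620 to 4443 in WT libraries. Its highest value, in Tet2 KO replicate 3, came with the highest Tal1 signal of the Tet2 KO libraries (1005), and the part of erythroid cells in Tal1 and Lmo2 was not tested. Megakaryocytes express Fli1, Runx1, Tal1, Gata2 and also Mecom. Of 11 tested megakaryocyte genes, 1 rose and 4 fell in dKO against WT, where 21.9% and 26.5% of all genes did. With the trend removed 0 rose and 7 fell, where 16.8% and 12.3% did. The summed signal of 12 such genes, among them Itga2b and Gp5, was 13166 to 18212 in dKO, 16998 to 19306 in Tet2 KO, 25002 to 33839 in Traf6 KO, against 22458 to 31302 in WT libraries. The part of megakaryocytes in these factors, Mecom among them, was not tested.

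Fli1 (chr9:32422204-32542861, minus strand), an ETS activator of stem cells and megakaryocytes, had 7144, 5769 and 3097 in dKO libraries. Its signal was 7574, 7929 and 6114 in Tet2 KO, 7693, 6601 and 8022 in Traf6 KO and 7550, 9202 and 7935 in WT libraries. All dKO libraries lay below the WT libraries, but dKO replicate 1 lay among those of the single knockouts. Against WT the log2 change in dKO was -0.70 ± 0.27 (adjusted p = 0.0465). The call held in 1 of 12 fits with 1 library left out, and without dKO replicate 3 the value was -0.35 (adjusted p = 0.145). It was also not called by edgeR (-0.66, adjusted p = 0.0722), by DESeq2 (-0.61, adjusted p = 0.0604) or with the trend removed (-0.55, adjusted p = 0.122).

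Erg (chr16:95359169-95586593, minus strand), the ETS factor most closely related to FLI1, had 845, 1111 and 1730 in dKO libraries. Its signal was 1340, 1411 and 1145 in Tet2 KO, 1182, 809 and 1148 in Traf6 KO and 1215, 1348 and 1519 in WT libraries. The dKO libraries spanned the whole range of WT values and beyond, while the Traf6 KO libraries lay below the WT libraries. The log2 change in dKO against WT was -0.21 (95% interval -0.81 to 0.40, adjusted p = 0.571), and 0.08 with the trend removed (adjusted p = 0.857). Erg and Fli1 are close in transcript length, and the ratio of Fli1 to Erg was 8.46, 5.19 and 1.79 in dKO, 5.65, 5.62 and 5.34 in Tet2 KO, 6.51, 8.16 and 6.99 in Traf6 KO and 6.21, 6.83 and 5.22 in WT libraries. The ratio spread more widely over the dKO libraries than over those of any other group. Endothelial cells make both factors, and also Mecom, Gata2, Tal1 and Lmo2. Of the 10 endothelial genes listed, led by Pecam1, Tie1 and Esam, 2 of 8 tested (Tie1 and Pecam1) fell in dKO against WT, where 26.5% of all genes did. With the trend removed 2 fell as well, Tie1 (-1.41, adjusted p = 0.00337) and Esam (-0.87, adjusted p = 0.0363), where 12.3% of all genes did. The summed signal of the endothelial genes was 6069 to 6944 in dKO, 8874 to 11534 in Tet2 KO, 7115 to 10689 in Traf6 KO, against 11531 to 12506 in WT libraries. The part of endothelial cells in Erg, Fli1, Mecom and the other factors named was not tested. Genes of the list differed in level over the 12 libraries. The leading ones stood at 1205 to 4447 (Pecam1), 789 to 5266 (Tie1) and 1188 to 3174 (Esam). Cdh5, a defining gene of endothelium named after its values were seen, was at 0 to 10.3.

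Gata3 (chr2:9857078-9890034, minus strand), best known as a T cell factor and present at a low level in stem cells, had 507, 719 and 1112 in dKO libraries. Its signal was 834, 1127 and 758 in Tet2 KO, 1055, 957 and 788 in Traf6 KO and 857, 1019 and 895 in WT libraries. All groups overlapped, and the log2 change in dKO against WT was -0.32 (95% interval -0.96 to 0.33, adjusted p = 0.403), and -0.09 with the trend removed (adjusted p = 0.847). Of 8 tested T cell and innate lymphoid genes, 4 rose and 1 fell in dKO against WT, where 21.9% and 26.5% of all genes did. With the trend removed 1 rose and 0 fell, where 16.8% and 12.3% of all genes did. The summed signal of the 13 listed genes, led by Nkg7, Lat and Lck, was 10391 to 55365 in dKO, 6756 to 8859 in Tet2 KO, 8160 to 9658 in Traf6 KO, against 5982 to 7467 in WT libraries, and Cd3e, which defines T cells, was at 0 in all 12 libraries. Within dKO the highest sum and the highest Gata3 signal were both in replicate 3, where Nkg7 alone gave 49423 of the 55365. The part of these cells in Gata3 was not tested. Of the dKO libraries, replicate 3 also held the highest Erg, Lmo2, Hlf, Runx1 and Tal1 and the lowest Mecom, Gata2, Fli1 and Etv6. Its total signal over all genes was 39973892, against 25557760 to 28916082 in the other libraries. These ranks are of the deposited signal and are not adjusted for that total.

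The single knockouts were set against WT to see what the loss of 1 gene gave. In Tet2 KO against WT, 0 of the 10 genes were called, where 0.413% of all genes were; 2 of the 10, Mecom and Gata2, had an unadjusted p under 0.05, against 1186 of all genes, and edgeR and DESeq2 called 0 of the 10. Mecom and Gata2 were lower in Tet2 KO without overlap and Lmo2 was higher, 3 of the 10 genes where 19.2% of all genes did not overlap. With the length trend removed 0 were called as well, where 0.519% of genes were. The log2 change of Gata2 was -0.71 (95% interval -1.21 to -0.21, adjusted p = 0.291). In Traf6 KO against WT, 0 of the 10 genes were called, where 0.271% of all genes were; 2 of the 10, Hlf and Runx1, had an unadjusted p under 0.05, against 1096 of all genes, and edgeR and DESeq2 again called 0. Hlf, Erg, Runx1 and Tal1 were lower in Traf6 KO without overlap and Lmo2 was higher, 5 of the 10 where 20.7% of all genes did not overlap. With the length trend removed 0 were called as well, where 0.373% of genes were. Hlf had a log2 change of -0.56 (95% interval -1.07 to -0.06, adjusted p = 0.588) and Runx1 of -0.55 (95% interval -1.07 to -0.03, adjusted p = 0.607). The log2 change of Mecom in Traf6 KO against WT was 0.06 (95% interval -0.68 to 0.81), and -0.24 without the library labelled Traf6 KO replicate 1.

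Against Tet2 KO, 4 of the 10 genes were called lower in dKO, namely Mecom, Hlf, Gata2 and Etv6, where 35.3% of all genes were called and 19.9% as lower. The higher calls made up 43.8% of all calls in that comparison, and 29.8% with equal library totals. Leaving out the library labelled Tet2 KO replicate 1 brought the count of members to 2, and removing the length trend brought it to 1 (Mecom), where 15.5% of genes were called and 6.42% as lower. Runx1 lay without overlap as well, at 1953 to 2525 in dKO against 2774 to 4253 in Tet2 KO, so that 5 members were lower without overlap where 24.2% of all genes were; it missed the threshold in limma (-0.62, adjusted p = 0.0586) and passed it in edgeR (-0.71, adjusted p = 0.0347) and DESeq2 (-0.62, adjusted p = 0.035). Against Traf6 KO the same 4 genes were called lower in dKO, where 38.0% of all genes were called and 20.7% as lower, and the same 4 did not overlap, where 21.8% of all genes were lower without overlap. With the trend removed 3 of them were called, without Hlf, where 18.8% of genes were called and 9.81% as lower. The comparisons share the dKO libraries, and those with WT share the WT libraries, so they are not independent of each other.

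**Figure D5:**
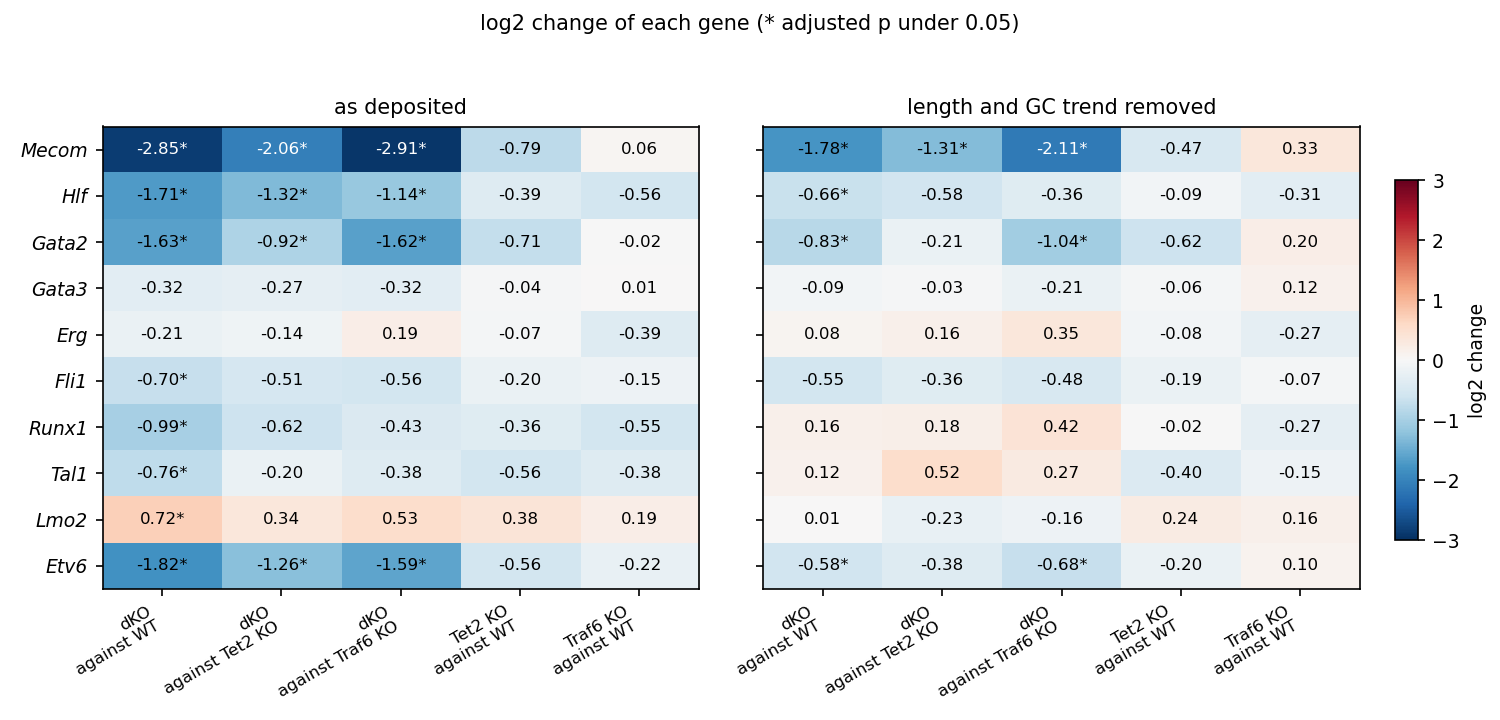
The log2 change of each gene (rows) in each comparison (columns), as deposited on the left and after the length and GC adjustment on the right; colour and number give the change, and a star an adjusted p under 0.05. Mecom has a star in all 3 comparisons of dKO on both sides, between -2.91 and -1.31, and the columns of the single knockouts against WT hold no star.

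Whether the loss of both genes differed from the sum of the single losses was tested by the interaction, the difference between dKO and Tet2 KO minus that between Traf6 KO and WT. Xist was high in both single knockouts and low in dKO and WT libraries, with an interaction of -18.55. Sex and genotype therefore cannot be told apart in this contrast either. By limma, 0 of the 10 genes passed, where 0.221% of all genes did, while 4 of the 10 (Mecom, Hlf, Gata2 and Etv6) had an unadjusted p under 0.05, against 2616 of all genes. With the length trend removed 0 were called as well, where 0.183% of genes were. Mecom had an interaction of -2.13 ± 0.49 on the log2 scale (adjusted p = 0.171). DESeq2 called it (-2.14, adjusted p = 0.00706) and edgeR did not (-2.20, adjusted p = 0.178). Without dKO replicate 1, limma called 3 members, Mecom (-2.43, adjusted p = 0.00536), Gata2 (-1.09, adjusted p = 0.0332) and Etv6 (-1.24, adjusted p = 0.047). The share of all genes called in that fit was not drawn up, and the 0.221% above belongs to the fit of all 12 libraries. That count of members is therefore not read as a result about them.

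Partners and relatives of the 10 factors were read from a list of cofactors, dimer partners and fellow stem cell factors. It was drawn up with earlier results known. Of 51 tested, 8 rose, 16 fell and 27 did neither in dKO against WT, where 21.9% of all genes rose and 26.5% fell. Their median log2 change was -0.35, against -0.09 over all genes. With the length trend removed 11 rose and 6 fell, where 16.8% and 12.3% of all genes did, and the median was 0.18, against 0.04 over all genes. None was called in Tet2 KO or Traf6 KO against WT. Zfpm1, which encodes the GATA cofactor FOG1, had a signal of 993, 604 and 516 in dKO and 3260, 5725 and 4120 in WT libraries, a log2 change of -2.65 (adjusted p = 0.000298; -1.63 with the trend removed, adjusted p = 0.000862). It fell beside Gata2, and its libraries did not overlap. Tef, a PAR bZIP relative of Hlf, fell by 2.15 (log2; adjusted p = 0.00101; -1.18 with the trend removed, adjusted p = 0.00635), with 709, 307 and 238 in dKO and 1450, 1583 and 1989 in WT libraries. Zfp521, a zinc-finger cofactor of early progenitors, fell by 2.18 (adjusted p = 0.00123; -0.81 with the trend removed, adjusted p = 0.0257), and Tcf12, an E protein partner of TAL1, fell by 1.40 (adjusted p = 0.00144), a call that ended with the trend removed (-0.24, adjusted p = 0.441). Sfpi1, which encodes the myeloid and lymphoid ETS factor PU.1, rose by 1.6 (adjusted p = 0.00229; 1.32 with the trend removed, adjusted p = 0.00351), with 8281, 11903 and 22410 in dKO and 4403, 3697 and 4867 in WT libraries.

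Partners of the LMO2 complex on that list include Ldb1 and the genes of its stabilising proteins. Ssbp4, which encodes one of the proteins that stabilise LDB1, rose by 1.49 on the log2 scale in dKO against WT (adjusted p = 0.00144), with 4590, 5342 and 8232 in dKO and 2041, 2141 and 2077 in WT libraries. Its relatives Ssbp2 and Ssbp3, named here after their values were seen, rose by 1.05 (adjusted p = 0.00493) and 1.13 (adjusted p = 0.0149). With the length trend removed the 3 changes were 1.24, 1.54 and 1.53 for Ssbp4, Ssbp2 and Ssbp3, all called. Ldb1 had 3988, 3999 and 6050 in dKO and 3882, 4499 and 3863 in WT libraries and did not pass as deposited (0.17, adjusted p = 0.552), but was called higher with the trend removed (0.70, adjusted p = 0.0335).

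Genes known as direct targets of these factors were read from a list of 24. In dKO against WT 3 rose, 9 fell and 12 did neither, where 21.9% of all genes rose and 26.5% fell. Their median log2 change was -0.50, against -0.09 over all genes. With the trend removed 4 rose and 6 fell, where 16.8% and 12.3% of all genes did, and the median was -0.13, against 0.04 over all genes. Kit, the stem cell factor receptor, a target of GATA2 and TAL1 and the antigen by which the cells were sorted, had a signal of 11935, 4099 and 4105 in dKO, 51517, 24029 and 28639 in Tet2 KO, 56213, 32355 and 39911 in Traf6 KO and 44484, 47837 and 47804 in WT libraries. Kit fell by 2.99 on the log2 scale in dKO (against WT, adjusted p = 0.000326), and its change was -1.91 with the trend removed (adjusted p = 0.000965). The dKO libraries lay below all others, and the RNA says nothing of c-Kit on the cell surface. Tek, the receptor TIE2 of quiescent stem cells, fell by 2.67 (adjusted p = 0.000948), and its ligand gene Angpt1 by 1.47 (adjusted p = 0.00165). Eng, a TGF-beta co-receptor, fell by 1.68 (adjusted p = 0.00069). With the trend removed the changes of Tek, Angpt1 and Eng were -1.82, -1.01 and -1.0, all called. In Tet2 KO against WT 1 target was called, Slamf1, which encodes the stem cell marker CD150, with 258, 379 and 223 in Tet2 KO and 1179, 893 and 760 in WT libraries (log2 change -1.73, adjusted p = 0.0257; -1.56 with the trend removed, adjusted p = 0.0446).

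The tested genes whose profile over the 12 libraries was most like that of a member were found by the mean absolute difference of log2 values, each centred on its own mean, among 10545 genes. Those nearest to Mecom were Mtmr3, Arrdc3 and Atp2a3, at 0.16, 0.18 and 0.21, and Mtmr3 averaged 1405 in dKO, 5251 in Tet2 KO, 8616 in Traf6 KO, against 8500 in WT libraries. Hlf was nearest to Zfp608 (0.11), Lpp (0.12) and Ptk2b (0.15), Gata2 to Anxa11 (0.13), Bag4 (0.13) and Rock2 (0.16), and Etv6 to Syk (0.09), Dcaf5 (0.10) and Nr2c2 (0.11). Lmo2 had the closest likeness, to Tspan13 (0.06), Wbscr27 (0.07) and Oaz2 (0.07), and Tspan13 averaged 25290 in dKO, 19382 in Tet2 KO, 16833 in Traf6 KO, against 14542 in WT libraries. Fli1 was nearest to Bhlhb9, Slc25a46 and Rnf219 (0.10 each), Runx1 to Atrx (0.13), Spen (0.14) and Cacnb1 (0.14), Tal1 to Ptpn12 (0.17), Tmbim6 (0.17) and Dcaf15 (0.18), and Gata3 to Zbtb7a (0.13), Lman2l (0.14) and Lass4 (0.15). None of these nearest genes was itself one of the 10 factors.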

How the data were processed

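RNA of sorted LSK cells was amplified with a SMART-Seq low-input kit and sequenced on an Illumina instrument, per the labels' protocols. The authors deposited 1 table of normalised signal, in which reads were scaled by a factor of each library. Tools named in the submitters' processing notes are STAR, featureCounts, DESeq2 and bcl2fastq, with builds GRCm38 and mm10; settings of these are not given in the sources used here. All deposited values were whole multiples of 1 read per library (100%, tolerance 1e-06), each read being worth 0.518 to 1.79 signal units, so reads were recovered for count tests.

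The values are not counts, so limma 3.58.1 (R 4.3.3, trend and robust) was fitted to log2(value + 1) of all 12 libraries with genotype as the only term. Fold changes on this scale are slightly understated for low genes. Benjamini-Hochberg adjusted p-values cover 14045 genes, at a threshold of 0.05. The length adjustment took a loess trend (span 0.5) on transcript length and GC content (GENCODE M21, GRCm38) off each library, for 13671 genes (97.3%). Promoters came from RefSeq. Alternatives were a pseudocount of 5, no filter, libraries scaled to equal totals, the replicate number as a block, leaving out 1 library at a time, and edgeR 4.0.16 and DESeq2 1.42.0 on recovered reads. The length adjustment with a library left out was added after seeing the data.

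The members and lists were chosen with earlier results of these data known. All 10 members are described. Partners and targets past the threshold could be named up to 6 per list and comparison, by smallest p, and of each list of another cell type the 3 with the highest mean and any at 0 throughout; 1 gene that this rule names is not reported here. The nearest genes were 3 per called member and for Gata3, with a mean of at least 50. All statistical code was tested on simulated data.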

Additional observations from a re-analysis of the deposited data

How the results depend on the processing

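The direction and side of the threshold of the 60 values (10 genes in 6 comparisons) were kept by 60 with a pseudocount of 5, 58 without the filter, 55 with equal library totals, 58 with edgeR, 56 with DESeq2 and 40 after the length and GC adjustment, here called the trend removed, and by 665 of 720 values with 1 library left out. The same replicate numbers do not pair the libraries: 3 of 18 same-numbered pairs had a correlation of their deviations over 0.1. With the replicate block 59 of 60 values were kept, the exception being Tal1 in dKO against WT (adjusted p = 0.0572); the count there was 7. With the trend removed, alone or with the replicate block, the counts were 4 in dKO against WT (main 8) and 1 in dKO against Tet2 KO (main 4), and with the trend removed and the replicate block 1 in the interaction, Mecom (adjusted p = 0.043). DESeq2 also called 1 in the interaction. With 1 library left out, the counts were 5 to 7 in dKO against WT, 2 to 6 in dKO against Tet2 KO and 0 to 3 in the interaction, and in dKO against WT with the trend removed they were 1 to 4. Shares of all genes called were not drawn up for the fits with 1 library left out.

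With the trend removed, with or without the replicate block, these log2 changes turned sign: in Traf6 KO against WT Gata2 (0.20) and Etv6 (0.10); in dKO against WT Erg (0.08), Runx1 (0.16) and Tal1 (0.12); in dKO against Tet2 KO Erg (0.16), Runx1 (0.18), Tal1 (0.52) and Lmo2 (-0.23); in dKO against Traf6 KO Runx1 (0.42), Tal1 (0.27) and Lmo2 (-0.16); and in the interaction Runx1 (0.44) and Lmo2 (-0.40). With equal library totals Gata3 in Traf6 KO against WT (-0.05) and Tal1 (-0.01) and Lmo2 (-0.04) in the interaction turned. Equal totals gave a median over all genes of -0.34 in dKO against WT, where it was otherwise -0.09. With 1 library left out, values that changed sign ranged from -0.21 to 0.07 (Gata3) and -0.15 to 0.02 (Erg) in Tet2 KO against WT; from -0.24 to 0.30 (Mecom), -0.10 to 0.11 (Gata2) and -0.09 to 0.13 (Gata3) in Traf6 KO against WT; from -0.48 to 0.03 (Erg) in dKO against WT; from -0.42 to 0.10 (Erg) and -0.37 to 0.03 (Tal1) in dKO against Tet2 KO; from -0.09 to 0.43 (Erg) in dKO against Traf6 KO; and from -0.02 to 0.49 (Erg), -0.26 to 0.10 (Runx1), -0.03 to 0.41 (Tal1) and -0.08 to 0.42 (Lmo2) in the interaction. None of the values was called after turning sign, while Runx1 and Tal1 in dKO against WT were called as deposited. The cause was not tested.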
